A study of Mus musculus with 2 samples.

Results

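Ccl2, Ccl7, Ccl8 and Ccl11 are 4 CC chemokine genes, out of 27998 gene IDs in the deposited count matrices, that were picked by symbol for attracting monocytes and eosinophils. They were picked with their levels in these libraries already known, so levels and differences are given below as descriptions of the libraries. Mouse lungs were dissociated and sorted for CD45- cells, which lack the surface protein that leukocytes carry. All cells came from lungs taken 7 days after Labelling-4T1 cells were injected intravenously. The 4T1 line, a mammary carcinoma of the mouse, seeds the lung, and its labelling version is known for secreting a membrane-permeant mCherry that tags cells close to it. The compared groups were Cherry_Positive cells and Cherry_Negative cells, sorted from such lungs and sequenced as 1 library each. The series title concerns irradiated lung, but the labels give neither the irradiation status, strain, sex and age of these mice nor how many were pooled. With 1 library per group there is no replicate error, no test was made, and every difference is between these 2 libraries.

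CC chemokines are small secreted proteins named for a pair of adjacent cysteines near the amino end. They bind proteoglycans on cells and matrix and steer leukocytes through G protein coupled receptors. Ccl2 is the main ligand of Ccr2, which classical monocytes use to leave the bone marrow and enter inflamed tissue. Ccl7 also binds Ccr2, and in addition Ccr1 and Ccr3. Ccl11, or eotaxin, is a ligand of Ccr3, the receptor of eosinophils. Ccl8 is known in mouse as a ligand of Ccr8, a receptor of type 2 helper T cells. In lung, fibroblasts are among the stromal cells that release such chemokines after inflammatory cytokines.

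The 4 genes form a cluster on the plus strand of chromosome 11 in mm10 (GENCODE M21), in which they lie in the order Ccl2, Ccl7, Ccl11 and Ccl8. Ccl12, another mouse ligand of Ccr2, lies between Ccl11 and Ccl8. The 5 genes span 81229 bases with no other protein-coding gene inside. Ccl2 lies at chr11:82035571-82037453, Ccl7 at chr11:82045712-82047525, Ccl11 at chr11:82057823-82062955 and Ccl8 at chr11:82115185-82116799. The stretch of coding sequence around the paired cysteines is shown because it is what makes these genes 1 family. Capitals mark the codons of the adjacent cysteines, and each line runs 5′ to 3′ on the plus strand.
Ccl2: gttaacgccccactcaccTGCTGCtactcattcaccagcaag
Ccl7: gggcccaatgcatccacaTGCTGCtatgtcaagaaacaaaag
Ccl11: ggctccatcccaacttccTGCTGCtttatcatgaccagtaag
Ccl12: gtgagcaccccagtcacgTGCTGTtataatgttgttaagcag
Ccl8: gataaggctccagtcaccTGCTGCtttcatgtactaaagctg
The stretch lies in exon 2 of Ccl2 (chr11:82036488-82036529), of Ccl7 (chr11:82046520-82046561) and of Ccl12 (chr11:82102616-82102657). In Ccl11 (chr11:82058042-82061719) and Ccl8 (chr11:82115312-82116079) it is spliced from exons 1 and 2, so these coordinates include the intron. The 5 coding sequences were 67.6% to 71.0% identical in pairs. The longest run of bases shared by the transcripts of any pair was 23, between Ccl2 and Ccl7. Reads of close copies can be confused, and whether this happened here was not tested. Gm17268, annotated on the minus strand over Ccl2, had 0 unique molecular identifiers (UMIs) in both libraries.

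A UMI tags 1 captured RNA molecule. The Cherry_Positive library held 10094853 UMIs in 1826 barcodes, with a median of 4324 per barcode, and the Cherry_Negative library held 11632459 UMIs in 2861 barcodes, with a median of 2971. Filtering kept 1766 and 2804 cells, and 13 barcode sequences occurred in both libraries. Cells fell into 21 clusters, made without chemokine genes and named by fixed markers into 17 classes, each called "-like". Levels are in CPM (the UMIs of a gene over all UMIs of the cells of a class in a library, on the usual counts-per-million scale), and all intervals are 95% intervals that cover counting error only. The alveolar fibroblast-like class joined 4 clusters that the libraries filled unequally. Clusters 8 and 9 held 228 and 162 Cherry_Positive cells, against 0 and 12 Cherry_Negative cells. Both carried 8 of 12 alveolar fibroblast markers but had none of them among their 10 leading genes. Cluster 8 was led by interferon-induced and acute phase genes such as Cxcl10, Cxcl9 and Saa3, with Ccl2 and Ccl7 also among the 10, and cluster 9 by genes such as Tfpi2, Hmox1 and Tnc. The 12 alveolar fibroblast markers together reached 12586 CPM in Cherry_Positive and 34076 CPM in Cherry_Negative cells of the class, so the class carried its markers at different levels in the libraries.

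A UMI of at least 1 member was found in 902 Cherry_Positive cells, 51.1% of them (exact binomial interval 48.7% to 53.4%), and in 164 Cherry_Negative cells, 5.85% (5.01% to 6.78%). In the Cherry_Positive library, Ccl2 had 14591 UMIs in 680 cells, Ccl7 7635 in 507 cells, Ccl11 1411 in 172 cells and Ccl8 149 in 51 cells. In the Cherry_Negative library, Ccl2 had 946 UMIs in 87 cells, Ccl7 306 in 37 cells, Ccl11 303 in 64 cells and Ccl8 29 in 18 cells. Ccl2 was the most and Ccl8 the least counted member in both, while Ccl7 exceeded Ccl11 by a wide margin among Cherry_Positive cells alone. The libraries also differed in their mix of cells. Mesenchymal classes (the fibroblast-like, pericyte-like and smooth muscle-like cells) made up 74.0% of Cherry_Positive and 27.9% of Cherry_Negative cells. These classes held 95.8% of all Ccl2 UMIs, 97.5% of Ccl7, 95.3% of Ccl8 and 98.6% of Ccl11 in the Cherry_Positive library. In the Cherry_Negative library they held 78.3%, 84.6%, 96.6% and 98.7% of the same genes.

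**Figure D1:**
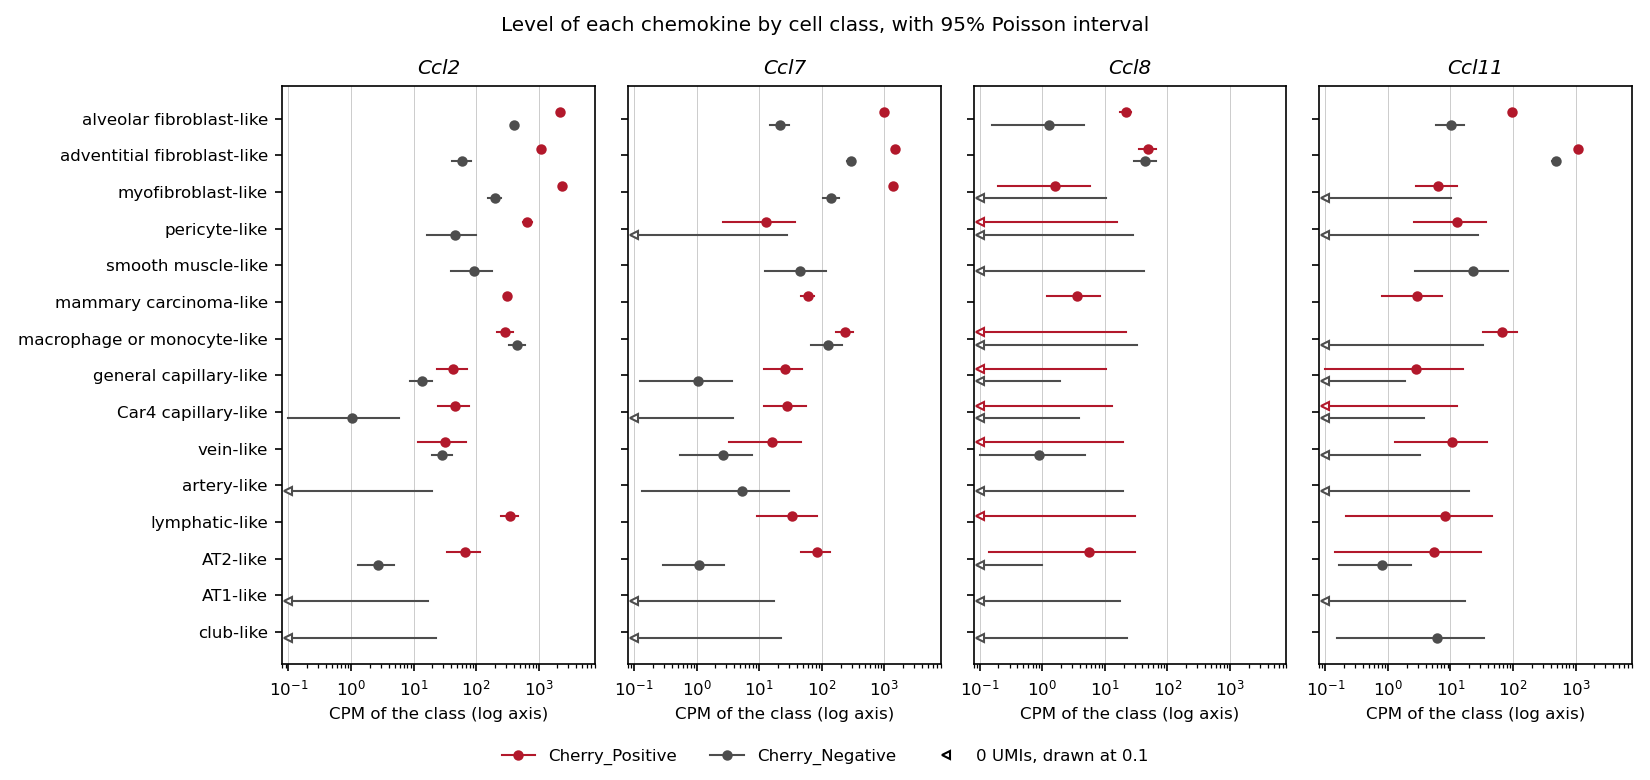
CPM of each chemokine (log axis) in each class with at least 20 cells in a library, with Cherry_Positive points above Cherry_Negative points, exact 95% Poisson intervals as bars, and open triangles at 0.1 for classes with 0 UMIs. In the Cherry_Positive library the 3 fibroblast-like classes hold at least 1107 CPM of Ccl2 and 973 CPM of Ccl7, while Ccl11 and Ccl8 are highest in adventitial fibroblast-like cells of both libraries.

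Ccl2, the monocyte attractant, was a gene of several mesenchymal classes. In the Cherry_Positive library it reached 2341 CPM in myofibroblast-like cells (Poisson interval 2257 to 2427), 2187 CPM in alveolar fibroblast-like cells (2145 to 2231), 1107 CPM in adventitial fibroblast-like cells (1038 to 1179) and 659 CPM in pericyte-like cells (559 to 771). The intervals of these 4 neighbours in the order did not overlap. In the Cherry_Negative library it reached 397 CPM in alveolar fibroblast-like cells (367 to 430), 198 CPM in myofibroblast-like cells (155 to 250), 60.2 CPM in adventitial fibroblast-like cells (41.9 to 83.7) and 45.4 CPM in pericyte-like cells (16.7 to 98.8). There the intervals of the last pair overlapped, so these classes were not separated at this depth. The highest Cherry_Negative level of Ccl2 lay outside the mesenchymal classes, at 455 CPM in 20 macrophage or monocyte-like cells (338 to 598). Of the 51 UMIs of those cells, 47 lay in 1 cell.

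Between the libraries, Ccl2 was 5.50 times higher in Cherry_Positive alveolar fibroblast-like cells (9950 UMIs in 864 cells, against 621 UMIs in 461 cells; interval 5.07 to 5.98). It was 18.4 times higher in adventitial fibroblast-like cells (955 against 35 UMIs; 13.1 to 26.6) and 11.8 times higher in myofibroblast-like cells (2921 against 71 UMIs; 9.33 to 15.2). In pericyte-like cells it was 14.5 times higher, on 155 UMIs in 22 of 64 Cherry_Positive cells, against 6 UMIs in 2 of 51 Cherry_Negative cells (6.52 to 40.2). The Cherry_Negative values rest on few cells. A single cell held 28.0% of Ccl2 UMIs in the alveolar, 45.7% in the adventitial, 62.0% in the myofibroblast-like and 83.3% in the pericyte-like class of that library. In the Cherry_Positive library the highest cell held 3.62%, 20.9%, 15.6% and 14.8%. Without the cell with most UMIs in each library, the log2 ratio was 2.88 in place of 2.46 in alveolar fibroblast-like cells, 4.75 in place of 4.20 in adventitial fibroblast-like cells, 4.71 in place of 3.56 in myofibroblast-like cells and 6.19 in place of 3.86 in pericyte-like cells. With the libraries clustered separately it was 3.28 in alveolar fibroblast-like, 1.59 in adventitial fibroblast-like and 2.88 in myofibroblast-like cells. As a mean of CPM over cells it was 3.31 in adventitial fibroblast-like cells.

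Ccl7, the ligand of Ccr2 and Ccr3, had another order of classes. In the Cherry_Positive library it reached 1503 CPM in adventitial fibroblast-like cells (1423 to 1587) and 1370 CPM in myofibroblast-like cells (1305 to 1436), which overlapped, and 973 CPM in alveolar fibroblast-like cells (945 to 1003). In the Cherry_Negative library it reached 292 CPM in adventitial fibroblast-like cells (250 to 340), 142 CPM in myofibroblast-like cells (106 to 187) and 21.8 CPM in alveolar fibroblast-like cells (15.1 to 30.4). Ccl7 was 44.7 times higher in Cherry_Positive alveolar fibroblast-like cells (4428 against 34 UMIs; 32.0 to 64.7), 9.61 times higher in myofibroblast-like cells (1709 against 51 UMIs; 7.28 to 13.0) and 5.14 times higher in adventitial fibroblast-like cells (1297 against 170 UMIs; 4.38 to 6.07). With separate clustering the log2 ratio of Ccl7 was 7.84 in place of 5.48 in alveolar fibroblast-like, 2.65 in place of 3.27 in myofibroblast-like and 3.16 in place of 2.36 in adventitial fibroblast-like cells. As a mean of CPM over cells it was 1.56 in adventitial fibroblast-like cells. Without the cell with most UMIs in each library it was 6.27 in alveolar fibroblast-like, 3.79 in myofibroblast-like and 2.68 in adventitial fibroblast-like cells. Few Cherry_Negative cells had Ccl7, 5 of them myofibroblast-like and 11 adventitial fibroblast-like. A single cell held 20 of the 51 myofibroblast-like and 51 of the 170 adventitial UMIs of that library. In pericyte-like cells, where Ccl2 was plentiful, Ccl7 had 3 UMIs in Cherry_Positive and 0 in Cherry_Negative cells.

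The mix of both Ccr2 ligands therefore differed between classes within a library. Ccl7 made up 57.6% of the Ccl2 and Ccl7 UMIs of Cherry_Positive adventitial fibroblast-like cells (binomial interval 55.5% to 59.6%), 36.9% in myofibroblast-like cells (35.5% to 38.3%), 30.8% in alveolar fibroblast-like cells (30.04% to 31.6%) and 1.90% in pericyte-like cells (0.393% to 5.45%). In the Cherry_Negative library this share was 82.9% in adventitial fibroblast-like cells (77.1% to 87.8%), 41.8% in myofibroblast-like cells (32.9% to 51.1%) and 5.19% in alveolar fibroblast-like cells (3.62% to 7.18%). The share was thus higher in Cherry_Positive than in Cherry_Negative alveolar fibroblast-like cells and lower in adventitial fibroblast-like cells, and the myofibroblast-like intervals overlapped. The Cherry_Negative shares rest on few cells, which these intervals do not cover. In that library Ccl2 was found in 6 and Ccl7 in 11 adventitial fibroblast-like cells. Among its alveolar fibroblast-like cells Ccl7 was found in 8, and 1 cell held 174 of the 621 Ccl2 UMIs.

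Ccl11, the eosinophil attractant, was mainly a gene of adventitial fibroblast-like cells, the fibroblasts of airway and vessel cuffs. There it reached 1093 CPM in Cherry_Positive cells (1024 to 1165) and 483 CPM in Cherry_Negative cells (428 to 543), a ratio of 2.26 (943 against 281 UMIs; 1.98 to 2.59). In alveolar fibroblast-like cells it reached 96.1 CPM in Cherry_Positive and 10.2 CPM in Cherry_Negative cells, a ratio of 9.38 (437 against 16 UMIs; 5.71 to 16.6). With separate clustering its log2 ratio was 2.14 in place of 1.18 in adventitial and 4.71 in place of 3.23 in alveolar fibroblast-like cells. As a mean of CPM over cells it was 0.85 in adventitial fibroblast-like cells, which is below 2-fold. Myofibroblast-like cells, rich in Ccl2, held 8 Ccl11 UMIs among Cherry_Positive and 0 among Cherry_Negative cells. The adventitial class held 66.8% of all Ccl11 UMIs of the Cherry_Positive library and 92.7% of those of the Cherry_Negative library, although it made up 7.25% and 4.21% of the cells. Ccl11 was also among the leading genes of the adventitial cluster, which had been made without it.

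Ccl8, known in mouse for its action through Ccr8, was the rarest member. Like Ccl11, it had its highest level in adventitial fibroblast-like cells in both libraries. Its UMIs were split otherwise, with 28.2% in the adventitial and 65.8% in the alveolar fibroblast-like class of the Cherry_Positive library. In the Cherry_Negative library these shares of Ccl8 were 89.7% and 6.90%. In adventitial fibroblast-like cells it had 48.7 CPM in Cherry_Positive (42 UMIs in 22 cells) and 44.7 CPM in Cherry_Negative cells (26 UMIs in 15 cells). The ratio was 1.09 with an interval of 0.652 to 1.85, so a difference was not detectable at this depth. With separate clustering the log2 ratio was 1.05 in place of 0.12. In alveolar fibroblast-like cells it had 98 UMIs in Cherry_Positive and 2 in Cherry_Negative cells, a ratio of 16.8 with a wide interval (4.54 to 141). A single Cherry_Positive cell held 47 of those 98 UMIs. As a mean of CPM over cells the log2 ratio was 4.69 in place of 4.07. The myofibroblast-like class held 2 and 0 Ccl8 UMIs and the pericyte-like class none in either library. The Poisson intervals of the pericyte-like class reach up to 15.7 CPM in Cherry_Positive and 27.9 CPM in Cherry_Negative cells.

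**Figure D2:**
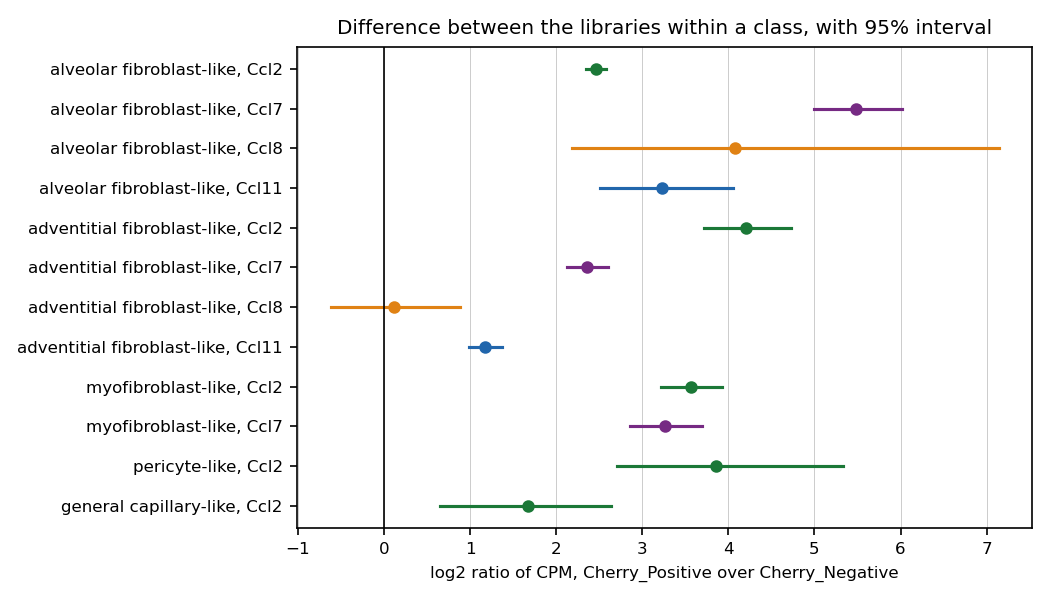
Log2 ratio of CPM, Cherry_Positive over Cherry_Negative, for each class and member that had 30 or more UMIs in all and reached 20 CPM in a library, with 95% intervals for counting error. Of the 12 values, the Ccl8 interval in adventitial fibroblast-like cells is the one that includes 0.

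Read against all genes measured the same way, these differences were among the larger ones, apart from Ccl8 in adventitial fibroblast-like cells. In alveolar fibroblast-like cells all 4 members were at least 2-fold higher in Cherry_Positive cells, where 5.5% of 6141 genes were. Ranked from the highest ratio, Ccl7 was 11th, Ccl8 23rd, Ccl11 39th and Ccl2 78th. In adventitial fibroblast-like cells 3 of 4 members were at least 2-fold higher, against 3.03% of 5314 genes, with Ccl2 4th, Ccl7 18th, Ccl11 110th and Ccl8 1987th. In myofibroblast-like cells Ccl2 and Ccl7, the 2 members that passed the filter on low values, were 22nd and 30th of 5447 genes, of which 6.76% were at least 2-fold higher. In pericyte-like cells Ccl2 was 11th of 2155 genes, of which 7.19% were at least 2-fold higher. Since the members were chosen for such differences, these ranks describe the choice.

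**Figure D3:**
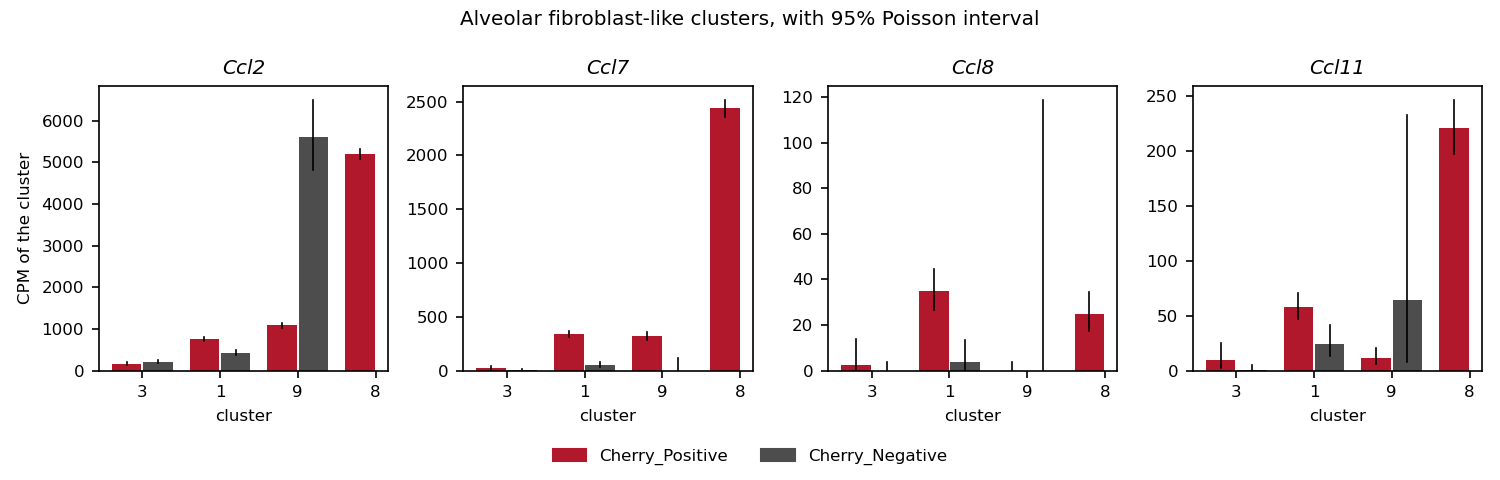
CPM of each member in the 4 clusters of alveolar fibroblast-like cells, Cherry_Positive bars left of Cherry_Negative bars, with 95% Poisson intervals. Cluster 8 has no Cherry_Negative cell, and the Cherry_Negative bar of Ccl2 in cluster 9 is 174 UMIs of 1 cell.

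The alveolar difference was spread unevenly over clusters. Cluster 8, which held Cherry_Positive cells alone, had 5202 CPM of Ccl2, 2436 CPM of Ccl7, 221 CPM of Ccl11 and 24.9 CPM of Ccl8. In cluster 1, with 371 Cherry_Positive and 134 Cherry_Negative cells, Ccl2 had 763 against 426 CPM, a ratio of 1.79 (1.56 to 2.07). Ccl7 had 338 against 54.2 CPM there, a ratio of 6.23 (4.29 to 9.39), and Ccl11 58.3 against 24.3 CPM, a ratio of 2.40 (1.34 to 4.66). In cluster 3, which had the highest score for alveolar fibroblast markers of the 4 clusters, Ccl2 had 167 CPM in 103 Cherry_Positive and 220 CPM in 315 Cherry_Negative cells, a ratio of 0.760 whose interval just included 1 (0.570 to 1.002). Ccl7 had 22.1 against 5.02 CPM in that cluster, on 9 against 5 UMIs. Over clusters 1 and 3 together, the alveolar clusters with at least 50 cells in each library, the log2 ratio was 1.16 for Ccl2, 3.65 for Ccl7 and 2.43 for Ccl11, a setting added after the data had been seen. Their cells were pooled, so the unequal mix of these clusters remained in those values. Taken singly, clusters 1 and 3 had log2 ratios of 0.84 and −0.40 for Ccl2 and of 2.64 and 2.14 for Ccl7. For Ccl11 they were 1.26 and 3.29, the latter on 4 against 1 UMIs. In cluster 9 Ccl2 had 1085 CPM in 162 Cherry_Positive cells and 5606 CPM in 12 Cherry_Negative cells, where all 174 UMIs lay in 1 cell. The alveolar ratio of the whole class thus joins differences within clusters to a difference in the share of cells per cluster. For Ccl2 the differences within clusters were not all in the same direction.

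Within a class, a minority of cells carried most molecules. Ccl2 was found in 45.6% of Cherry_Positive and 10.8% of Cherry_Negative alveolar fibroblast-like cells, at median depths of 4499 and 3115 UMIs per cell. Thinned to 2000 UMIs per cell, the shares were 36.5% (33.3% to 39.9%) and 9.77% (7.04% to 13.1%), with 18 and 62 shallower cells left out. At least 10 Ccl2 UMIs were found in 185 of 864 Cherry_Positive cells and in 9 of 461 Cherry_Negative cells, and the highest 10% of Cherry_Positive cells held 76.6% of that class's Ccl2 UMIs. Thinned shares for Ccl7 were 27.1% and 1.504% in the same class, and for Ccl11 6.38% and 1.504%. In adventitial fibroblast-like cells Ccl11 was found in 49.2% of thinned Cherry_Positive cells (40.3% to 58.2%) and 34.2% of thinned Cherry_Negative cells (25.6% to 43.7%), and these intervals overlapped. Thinned shares for Ccl8 there were 8.59% and 8.77%.

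**Figure D4:**
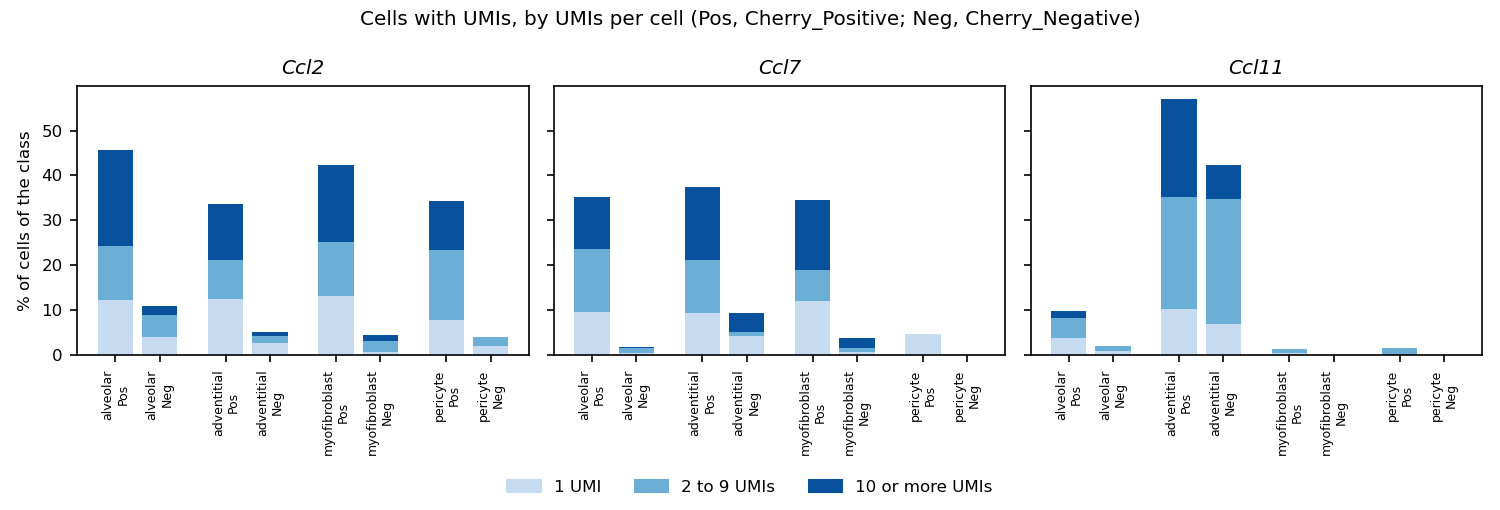
Percent of the cells of each mesenchymal class with 1, with 2 to 9 and with 10 or more UMIs of Ccl2, Ccl7 or Ccl11, Cherry_Positive (Pos) bars left of Cherry_Negative (Neg) bars, before thinning. In alveolar fibroblast-like cells 185 Cherry_Positive and 9 Cherry_Negative cells had 10 or more Ccl2 UMIs.

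Capillary-like, vein-like and alveolar type 2-like cells had low levels, which free RNA in the droplets can also produce. In Cherry_Positive cells Ccl2 was found in 13.1% of general capillary-like cells, in 15.2% of Car4 capillary-like cells and in 6 of 40 vein-like cells, at 2975, 3120 and 3949 median UMIs per cell, with at most 2 UMIs in any of these cells. Their levels were 42.9, 45.5 and 31.8 CPM. Alveolar type 2-like (AT2-like) cells, the surfactant cells, had 66.6 CPM of Ccl2 in 6 of 22 Cherry_Positive cells, and 2.69 CPM in 9 of 448 Cherry_Negative cells. Ccl7 had 83.2 CPM in Cherry_Positive AT2-like cells, with 12 of 15 UMIs in 1 cell. These shares are treated as a background level, and how much of them is free RNA was not tested. Set beside these, Ccl2 had at least 659 CPM in the fibroblast-like and pericyte-like classes of the Cherry_Positive library. The Ccl7 share of both Ccr2 ligands in Cherry_Positive general capillary-like cells, 37.5% (18.8% to 59.4%), rested on 9 Ccl7 and 15 Ccl2 UMIs and overlapped the shares of all 3 fibroblast-like classes. In general capillary-like cells Ccl2 was 3.18 times higher in the Cherry_Positive library (15 UMIs in 13 cells, against 26 UMIs in 5 cells; 1.57 to 6.23), against 3.17% of 6273 genes at least 2-fold higher, but 22 of the 26 Cherry_Negative UMIs lay in 1 cell. Over the alternatives this log2 ratio, 1.67 as reported, ran from 0.24 with chemokine genes kept in the clustering to 4.19 without the cell with most UMIs in each library. With 5% of each library's average profile subtracted as free RNA, no Ccl2 was left in Cherry_Positive general capillary-like cells, so that ratio could not be had, and the 4 alveolar log2 ratios stayed within their intervals.

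Other classes were small in a library and are given as values. Cells with mammary carcinoma markers had 308 CPM of Ccl2 in 52 of 130 Cherry_Positive cells, of which 14 had at least 10 UMIs, and 356 CPM in 10 Cherry_Negative cells, where 1 cell held 83 of 84 UMIs. Macrophage or monocyte-like cells, which a CD45- sort should remove and which also carried T cell markers, had 294 CPM of Ccl2 in 29 Cherry_Positive and 455 CPM in 20 Cherry_Negative cells, with 47 of 51 UMIs of the Cherry_Negative cells in 1 cell. Mesothelial-like cells had 42 Ccl2 and 33 Ccl7 UMIs in 11 Cherry_Positive cells, and none of either in 12 Cherry_Negative cells. In lymphatic-like cells, 31 of the 42 Ccl2 UMIs of 21 Cherry_Positive cells lay in 1 cell.

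Markers of other cell types differed in level between the libraries within the fibroblast-like classes. In alveolar fibroblast-like cells the 14 macrophage or monocyte markers summed to 39.6 CPM in Cherry_Positive and 194 CPM in Cherry_Negative cells, against 19275 and 15241 CPM in the macrophage or monocyte-like class. Their highest single level was 20.2 CPM in Cherry_Positive and 170 CPM in Cherry_Negative cells, and Mrc1, Marco, C1qa, C1qc and Ccr2 were at 0 in the Cherry_Negative cells. The 8 neutrophil markers summed to 284 CPM in Cherry_Positive and 826 CPM in Cherry_Negative alveolar fibroblast-like cells, of which G0s2, a regulator of lipolysis, gave 256 and 808 CPM. The 12 AT2 markers summed to 230 CPM in Cherry_Positive and 2338 CPM in Cherry_Negative cells of this class, led by the surfactant gene Sftpc. Of 7 T cell markers, 5 were at 0 in the Cherry_Positive and 7 in the Cherry_Negative cells. The part of these markers' cells in the chemokine levels was not tested. Of 8 eosinophil markers, 7 were at 0 in Cherry_Positive and 8 in Cherry_Negative alveolar fibroblast-like cells. In adventitial fibroblast-like cells the macrophage or monocyte markers summed to 33.6 CPM in Cherry_Positive and 165 CPM in Cherry_Negative cells, with 9 and 6 of 14 at 0.

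The members appeared together in cells to different degrees. In Cherry_Positive alveolar fibroblast-like cells Ccl2 was found in 76.4% of the 305 cells with Ccl7 and in 28.8% of those without it, and after thinning in 76.0% and 21.9%. In Cherry_Positive myofibroblast-like cells the thinned values were 69.6% and 22.0%, and in adventitial fibroblast-like cells 56.4% and 7.87%. Ccl7 was found in 47.6% of thinned Cherry_Positive adventitial fibroblast-like cells with Ccl11 and in 13.8% of those without it. Ccl8 was found in 14.3% of thinned Cherry_Positive adventitial fibroblast-like cells with Ccl11 and in 3.08% of those without it, and in the Cherry_Negative library in 17.9% and 4% of such cells. Before thinning, 9 Cherry_Positive alveolar fibroblast-like cells had both Ccl8 and Ccl11. The alveolar shares pool clusters with unlike detection. Cluster 8 held 164 of the 305 cells with Ccl7, and 81.1% of its cells had Ccl2 and 71.9% Ccl7. In Cherry_Positive cells of cluster 3 these values were 16.5% and 8.74%. The part of this mix in the alveolar shares was not tested.

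Over 18 sums of a class and a library with at least 30 cells, from 11 classes, Ccl8 and Ccl11 had the most similar pattern of log2(CPM + 10), with Pearson r of 0.97. For Ccl2 and Ccl7 r was 0.81, for Ccl7 with Ccl8 0.73 and with Ccl11 0.71, and for Ccl2 with Ccl8 0.45 and with Ccl11 0.48. Sums of 1 library share its depth, free RNA and preparation, so r is a description only. Among 6390 other genes, the closest to Ccl2 were F830016B08Rik (0.94), Timp1, an inhibitor of matrix metalloproteinases (0.92), and Mt2, a metallothionein (0.91). The closest to Ccl7 were Has1, a hyaluronan synthase (0.95), Tnfaip6, a hyaluronan-binding protein (0.94), and Vcan, the proteoglycan versican (0.93). Ccl8 was closest to Cpz, a carboxypeptidase (0.94), Aldh1a2, which makes retinoic acid (0.94), and Lgi2 (0.93). Ccl11 was closest to Cpz (0.94), Lgi2 (0.94) and Clec11a, a secreted lectin-like growth factor (0.94).

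The listed receptors for CC chemokines, most of them leukocyte genes, had few UMIs in the sorted cells. Over all cells Ccr2 had 33 UMIs among Cherry_Positive and 19 among Cherry_Negative cells, with 92.3% of them in macrophage or monocyte-like cells. Ccr1 had 16 and 8 UMIs, Ccr3 1 and 0, and Ccr8 0 in both. The Ackr genes, whose products also bind chemokines, each had their largest share of UMIs in an endothelial class. This share was 94.0% for Ackr1 in vein-like, 41.0% for Ackr2 in Car4 capillary-like and 57.6% for Ackr4 in general capillary-like cells. Ackr1, a receptor of venules, had 7 UMIs among Cherry_Positive and 161 among Cherry_Negative cells, and in vein-like cells, for which it is a naming marker, 10.6 and 137 CPM. Ackr2 had 71 and 341 UMIs, with 80.5 CPM in Cherry_Positive and 152 CPM in Cherry_Negative Car4 capillary-like cells. Ackr4 had 4 and 62 UMIs. None of the 8 receptors passed the filter on low values in alveolar fibroblast-like cells.

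In the same alveolar class, the other genes of the pathway were described by lists. These lists were chosen with earlier results of these data known. Of 14 other CC ligands 1 passed the filter, Ccl5, a ligand of Ccr1 and Ccr3, with 206 CPM in Cherry_Positive and 1.92 CPM in Cherry_Negative cells (938 against 3 UMIs; ratio 107, 36.6 to 522). Ccl12, the neighbour in the locus, had 12 UMIs among Cherry_Positive and 7 among Cherry_Negative cells of all classes. In alveolar fibroblast-like cells it had 2.42 CPM in the Cherry_Positive and 0 CPM in the Cherry_Negative library. Of 11 growth and survival factors of monocytes and eosinophils 5 passed, 3 were at least 2-fold higher and none lower, and their median log2 ratio was 1.25, against −0.05 over all 6141 genes. Il33, an alarmin, had 29.0 against 0.640 CPM (132 against 1 UMIs; ratio 45.3, 7.998 to 1804). Il34 had 22.6 against 7.04 CPM (ratio 3.22, 1.72 to 6.64) and Csf1, like Il34 a ligand of the macrophage receptor Csf1r, 82.4 against 34.6 CPM (ratio 2.39, 1.79 to 3.23). The smallest ratios of the list were 1.33 for Mif and 1.35 for Tslp.

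Of 15 receptors for signals known to induce such chemokines 14 passed, 3 were at least 2-fold higher in Cherry_Positive cells and none lower, with a median log2 ratio of 0.60. The interleukin 17 receptor Il17ra had 43.7 CPM in Cherry_Positive and 8.96 CPM in Cherry_Negative cells (ratio 4.88, 2.84 to 9.09), Il13ra1 a ratio of 3.203 and Pdgfrb of 3.01. The lowest were the interferon gamma receptor Ifngr1 at 0.615 (0.562 to 0.673) and Pdgfra at 0.710 (0.642 to 0.787). Of 18 transcription factors and feedback genes 17 passed, 5 were at least 2-fold higher and 1 lower, with a median of 0.32. Bcl3, a regulator of NF-kappaB, had a ratio of 3.47 (2.37 to 5.27), and Socs1, a feedback inhibitor of interferon signalling, 3.45 (2.80 to 4.29). Socs3, a feedback inhibitor of interleukin 6 family signalling, had 272 CPM in Cherry_Positive and 582 CPM in Cherry_Negative cells, a ratio of 0.467 (0.429 to 0.510), and Fos, an immediate early gene, had a ratio of 0.575. Of 10 genes for processing and retention of chemokines 8 passed, 3 were at least 2-fold higher and none lower, with a median of 0.62. Vcan had a ratio of 6.50 (3.88 to 11.8), the protease Mmp3 of 2.85 (2.21 to 3.73) and the heparan sulfate carrier Sdc4 of 2.38 (2.12 to 2.69), while Mmp2 had 0.679 and Sdc2 0.681. With 5.5% of all genes at least 2-fold higher and 6.27% at least 2-fold lower in this class, 15 of 45 listed genes that passed were higher and 1 was lower. A gene could pass the filter through its level in a single library, as Il17ra did in Cherry_Positive cells. The lists were chosen with these data known, so the count is a description of that choice.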

How the data were processed

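The deposited matrices hold UMI counts per gene ID and barcode, per the file contents, for CD45- cells of mouse lung in a Cherry_Positive and a Cherry_Negative library. Libraries were made with a Chromium 3′ kit, per the labels' protocols. Cell Ranger 2.1.1, Seurat 4.0.2, R 4.0.3 and mm10 are listed without roles, per the submitters' processing notes, and other settings were not stated in these sources. Counts were read as deposited. The members, the 6 gene lists and the 26 marker classes were chosen with earlier results of these data known.

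A filter of at least 500 genes and at most 10% mitochondrial UMIs removed 56 Cherry_Positive and 50 Cherry_Negative cells. Scrublet, run through scanpy 1.11.5 at a doublet rate of 2%, marked 4 (0.226%) Cherry_Positive and 7 (0.249%) Cherry_Negative cells. These were removed, and at so low a share doublets may remain. Kept cells of both libraries were clustered together with leidenalg 0.10.2 at resolution 1, without batch correction, from 2000 variable genes that excluded chemokines (15 neighbours in 30 principal components). A cluster took the name of the marker class with the highest score among classes with at least 3 markers detected, where no other class had more markers among its 10 leading genes. This rule was set after the clusters had been seen. The vein-like cluster also carried general capillary markers, and the club-like cluster ciliated cell markers.

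The UMIs of a gene were summed per class and library and scaled by the class total. The 6 classes that held 50 or more cells on both sides were compared. Sums carry exact Poisson intervals, shares exact Clopper-Pearson binomial intervals, and ratios the interval of the binomial split of UMIs, all for counting error only. A count of 0 was set to a floor of 3 counts for limits of ratios. Depth limits genes with few UMIs, Ccl8 above all. Since 3′ UMI counts do not scale with transcript length, CPM of different genes were set side by side without a length correction. No p-value was computed, since there is 1 library per group. The calculation over all genes was tested on simulated data.

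Named genes were the 4 members, list members that had 30 or more UMIs in all and reached 20 CPM in a library, within the class with most member UMIs (the 3 largest and 2 smallest ratios of each list), and the 3 genes most like each member. Some genes that this rule or a list covers are not reported here. The list member Ccl19, whose symbol stands for several IDs, and Cebpd were not analysed here. The transcript and coding sequences are from GENCODE M21 for mm10. Alternatives were other cell filters, doublets kept, resolutions of 0.5 and 2, chemokine genes kept, separate clustering, trimmed mean scaling, a mean over cells, the highest cell left out, 5% of free RNA subtracted, shared barcodes left out and 1 added setting. Python 3.11.15, numpy 2.4.6, scipy 1.17.1, pandas 2.3.3 and matplotlib 3.10.9 were used.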

Additional observations from a re-analysis of the deposited data

How the results depend on the processing

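No paired analysis was possible because each group is 1 library. For the same reason no replicate could be left out. In alveolar fibroblast-like cells every member stayed higher in the Cherry_Positive library under 12 alternatives and 1 added after the data had been seen. The log2 ratio of Ccl2, 2.46 as reported, was 3.28 when the libraries were clustered separately, 2.60 with trimmed mean scaling, 2.88 without the cell with most UMIs in each library and 1.16 over the clusters with at least 50 cells in each library. For Ccl7, 5.48 as reported, it was 7.84 with separate clustering, 4.94 as a mean of CPM over cells, 6.27 without the highest cells and 3.65 over those clusters. For Ccl11, 3.23 as reported, it was 4.71 with separate clustering and 2.43 over those clusters. The values over those clusters pool their cells, so the unequal mix of the clusters remains in them. Separate clustering assigns other cells to a class, and the cause of its larger values was not tested. The values of Ccl8, 4.07 as reported, stayed within its counting interval, although separate clustering left 0 Cherry_Negative UMIs and a bound of at least 2.82.

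In the other classes 8 of 8 ratios were above 1 as reported. Cells with at least 1000 genes and at most 5% mitochondrial UMIs turned Ccl8 in adventitial fibroblast-like cells to a log2 ratio of −0.18, from 0.12, within an interval that includes 0, and the cause was not tested. Over these 8 ratios, 79 of 95 alternative values stayed within the counting interval, the value of −0.18 among them, and 16 moved outside it in the same direction. Trimmed mean scaling shifted all log2 ratios of a class alike, by 0.14 in alveolar, 0.08 in adventitial and 0.19 in myofibroblast-like cells, 0.29 in pericyte-like cells, 0.06 in general capillary-like and −0.03 in Car4 capillary-like cells.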

Other observations

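Some other CC ligands marked the few leukocyte-like cells left in the sort, and had no place in the comparisons above. In macrophage or monocyte-like cells, 29 Cherry_Positive and 20 Cherry_Negative cells, Ccl6 had 4041 CPM in Cherry_Positive and 2086 CPM in Cherry_Negative cells, and Ccl9 1249 and 437 CPM. Ccl4 had 414 and 1346 CPM, and Ccl3, a ligand of Ccr1, 258 and 847 CPM. Of all Ccl6 UMIs 97.0% lay in this class, and of all Ccl3 UMIs 93.9%. These genes were chosen after their values were seen, and each level rests on at most 29 Cherry_Positive or 20 Cherry_Negative cells.

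In alveolar type 2-like cells, Il33, an alarmin for type 2 immune cells, had 178 CPM in 22 Cherry_Positive and 175 CPM in 448 Cherry_Negative cells. This class held 50.4% of the Il33 UMIs of both libraries together. In the Cherry_Positive library, however, 409 of 626 Il33 UMIs lay in adventitial fibroblast-like cells. Il33 had 474 CPM there, against 86.0 CPM in Cherry_Negative adventitial fibroblast-like cells. Csf2, the growth factor of alveolar macrophages, had 96.8% of its UMIs in alveolar type 2-like cells, with 16.6 CPM in Cherry_Positive and 32.1 CPM in Cherry_Negative cells. Both genes were chosen after their values were seen.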
